A study of Homo sapiens with 12 samples.

Results

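The genes that encode the proteasome and the proteins that assemble or regulate it were followed in CD133+ and CD133- cells of 3 gastric cancer cell lines. They were taken as every gene symbol made of PSM, a letter from A to G and a number, which gave 49 of the 34595 genes with a value. Of these, 48 are proteasome genes, and PSMC3IP, which the same letters take in, encodes a cofactor of DNA recombination. The 48 fall into 8 genes of the 20S alpha ring, 4 of the beta ring without a catalytic site, 3 constitutive and 3 immunoproteasome catalytic subunits, the thymic subunit PSMB11, 6 ATPases and 11 other subunits of the 19S particle, 7 assembly chaperones, 4 activators and the inhibitor PSMF1.

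KATO-III, SNU-216 and SNU-601, established gastric cancer lines grown in medium with calf serum, were stained for CD133, the membrane glycoprotein encoded by PROM1, and sorted. The CD133+ fraction held the brightest 10% of cells and the CD133- fraction the dimmest 6%, so the cells between these gates were left out and each fraction is a selected end of 1 line, with no treatment or genetic change in any group. Each of the 6 populations was hybridized on 2 Illumina HT-12 v3 BeadChips, 12 arrays in all, and whether the 2 arrays of a population came from separate sorts is not stated. The design text deposited with the arrays names SNU201 where every array label has SNU-216, and the array labels were used.

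The proteasome degrades proteins marked with ubiquitin. Its 20S core is a barrel whose inner rings carry the proteolytic sites, and the 19S particle at its ends recognizes, unfolds and feeds in the substrate. Interferon induces 3 alternative catalytic subunits, PSMB8, PSMB9 and PSMB10, which replace PSMB5, PSMB6 and PSMB7 in newly built cores, and the 11S activator of PSME1 and PSME2, and the resulting immunoproteasome supplies peptides for presentation on HLA class I.

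The promoters of the 5 immunoproteasome genes are shown because the gene with the widest range over the populations, PSMB9, is among them, and because they are known targets of interferon-responsive factors. Each is the RefSeq window of 300 bases, from 250 before to 50 after the annotated start, on build GRCh38.p14 and written 5′ to 3′ on the strand of the gene. The windows lie at chr6:32843998-32844297 on the minus strand for PSMB8, chr6:32853942-32854241 on the plus strand for PSMB9, chr16:67936801-67937100 on the minus strand for PSMB10, chr14:24135944-24136243 on the plus strand for PSME1 and chr14:24146561-24146860 on the minus strand for PSME2. A second window of PSMB8, for another start, held no match and is not shown. Capitals mark matches on either strand to the interferon-stimulated response element, searched as GAAA and GAAA with any 2 bases between them, or to the GAS element, searched as TTCNNNGAA.
PSMB8: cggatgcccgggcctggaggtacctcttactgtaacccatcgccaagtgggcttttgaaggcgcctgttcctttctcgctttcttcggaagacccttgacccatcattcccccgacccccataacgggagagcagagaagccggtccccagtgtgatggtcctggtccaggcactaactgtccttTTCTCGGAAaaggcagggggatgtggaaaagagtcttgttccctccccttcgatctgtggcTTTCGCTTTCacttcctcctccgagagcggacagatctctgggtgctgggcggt
PSMB9: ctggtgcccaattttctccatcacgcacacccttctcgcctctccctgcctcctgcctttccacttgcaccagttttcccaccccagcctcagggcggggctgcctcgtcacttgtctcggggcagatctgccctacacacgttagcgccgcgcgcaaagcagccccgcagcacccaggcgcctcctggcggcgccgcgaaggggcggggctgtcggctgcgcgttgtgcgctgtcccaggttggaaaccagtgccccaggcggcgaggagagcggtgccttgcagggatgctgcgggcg
PSMB10: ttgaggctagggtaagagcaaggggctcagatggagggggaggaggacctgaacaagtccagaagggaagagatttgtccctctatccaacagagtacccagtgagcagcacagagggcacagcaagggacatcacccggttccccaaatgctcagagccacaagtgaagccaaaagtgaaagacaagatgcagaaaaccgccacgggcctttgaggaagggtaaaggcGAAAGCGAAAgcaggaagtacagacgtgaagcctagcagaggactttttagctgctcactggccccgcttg
PSME1: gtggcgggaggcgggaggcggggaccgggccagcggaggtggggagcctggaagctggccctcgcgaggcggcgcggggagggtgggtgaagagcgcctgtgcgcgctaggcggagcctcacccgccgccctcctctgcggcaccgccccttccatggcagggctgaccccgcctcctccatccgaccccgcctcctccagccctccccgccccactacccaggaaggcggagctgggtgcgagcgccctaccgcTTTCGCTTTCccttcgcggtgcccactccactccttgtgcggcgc
PSME2: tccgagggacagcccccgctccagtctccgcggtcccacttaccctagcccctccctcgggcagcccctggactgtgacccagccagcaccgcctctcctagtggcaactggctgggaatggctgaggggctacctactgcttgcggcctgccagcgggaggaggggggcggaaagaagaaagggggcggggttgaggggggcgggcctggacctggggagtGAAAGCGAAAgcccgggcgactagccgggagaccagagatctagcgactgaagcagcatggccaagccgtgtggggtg
The capitals of PSMB10 and PSME2, and the opposite strand of the capitals of PSME1 and of the second run in PSMB8, all read GAAAGCGAAA. These 10 letters, picked after the matches were seen, stood in 4 of the 5 windows and in 35 of all 34796 windows (0.101%). The window of the assembly chaperone PSMG4 held them too. The position of a match is that of its first base as printed, whichever strand the letters read on. From the start, these positions were -4 in PSMB8, -21 in PSMB10, 6 in PSME1 and -28 in PSME2. The first run of capitals in PSMB8, at -65, is the GAS match. The 43 members with a window have 53 windows. Of these, 7 held this response element (13.2%, against 3.57% of all windows) and 8 held TTCNNNGAA (15.1%, against 7.67%), and PSMB9 held neither in the window shown. The core of the antioxidant response element, TGACNNNGC, was found in 15 of the 53 (28.3%, against 13.3%) and CCAAT in 22 (41.5%, against 34.6%). These are matches of letters within the window and say nothing of binding.

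The deposited intensities had a median between 26.0 and 27.1 on every array. Values under a floor of 32.7 were set to it and log2 was taken, and 20147 genes above it on at least 2 arrays were tested. Arrays of the same population correlated at 0.993 to 0.995, those of the other fraction of a line at 0.974 to 0.988, and those of different lines at 0.849 to 0.916. PROM1 was higher in CD133+ cells of each line, by 1.10 (KATO-III), 2.02 (SNU-216) and 1.86 (SNU-601) on the log2 scale. All 7 epithelial markers (EPCAM, TACSTD1, CDH1, KRT8, KRT18, KRT19, CLDN4) lay above the floor on all 12 arrays. Of 10 markers of blood, endothelium and fibroblasts, PTPRC, CD3E, PECAM1, VWF and DCN lay above it on no array.

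Of the 49 genes, 47 were tested, and each of the 47 lay above the floor on all 12 arrays. PSMA8, a testis form of an alpha subunit, lay between -43.9 and -16.8 and PSMB11 between -34.6 and 27.3, under the floor on every array. Within a gene, the means of the 6 populations spanned a median of 0.79 on the log2 scale (0.12 to 3.67), against 1.08 over all tested genes, and the SD between the 2 arrays of a population had a median of 0.0582, against 0.0710. The widest spans were those of PSMB9 (3.67, or 12.7-fold), PSMD9 (2.87), PSMA7 (1.97), PSMF1 (1.77) and PSMD14 (1.66). The narrowest were those of PSME1, of the 11S activator, and PSMB6, a constitutive catalytic subunit that stayed between 13664 and 16488 (0.12 each).

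**Figure D1:**
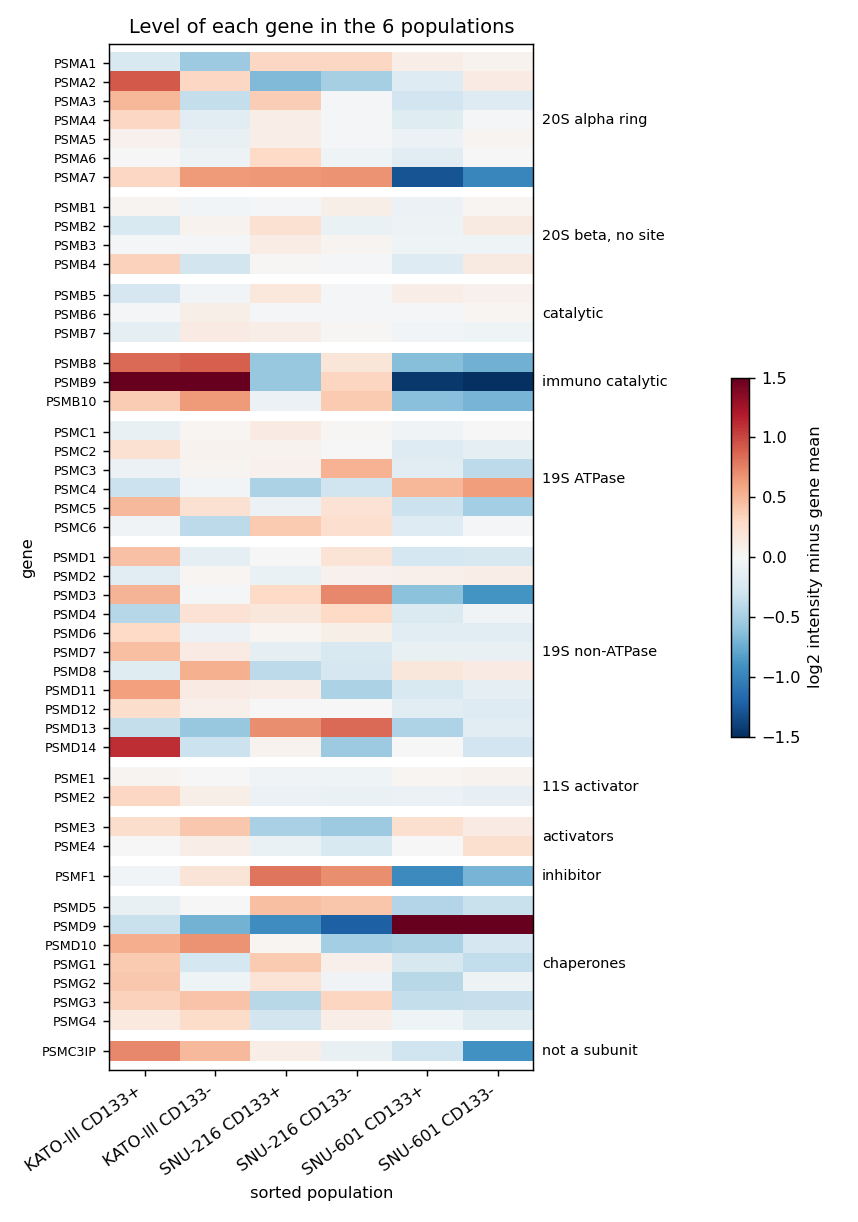
Mean log2 intensity of each tested gene in each of the 6 populations minus the mean of that gene over the populations, with genes in rows by group and populations in columns; values past the ends of the colour scale take the end colour. PSMB8 and PSMB9 are highest in the KATO-III columns, and PSMD9 is highest in the SNU-601 columns.

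The comparison of CD133+ with CD133- cells asks which genes go with the marker within a line. A gene is called where its adjusted p was under 0.05 in limma, with Benjamini-Hochberg adjustment over all tested genes. In KATO-III, 16 of the 47 genes were called higher in CD133+ cells (34.0%) and 10 lower (21.3%), where 18.7% and 20.6% of all tested genes were, and 24.0% and 27.4% of the 11674 genes above the floor on all 12 arrays. In SNU-216, 8 were higher (17.0%) and 7 lower (14.9%), where 14.6% and 14.0% of all tested genes and 20.1% and 20% of those above the floor on all arrays were. In SNU-601, 3 were higher and 3 lower (6.38% each), where 8.59% and 7.78% of all tested genes and 12.0% and 10.4% of those above the floor throughout were. The shares in SNU-216 and SNU-601 thus lay near or under the background, and the share called higher in KATO-III above it. The counts depended on the arrays fitted. Without KATO-III CD133- replicate 2, 13 genes were called higher and 3 lower in KATO-III, 16 in all in place of 26, and without replicate 2 of either SNU-601 fraction, 3 in place of 6 were called in SNU-601. Fitted on the arrays of 1 line alone, limma called 16 in KATO-III, 7 in SNU-216 and 0 in SNU-601, where 13 had an unadjusted p under 0.05. The median log2 change of the 47 genes was 0.07 in KATO-III, 0.04 in SNU-216 and -0.03 in SNU-601, against 0.00 over all tested genes in each line. In sorted fractions measured in bulk, fewer cells of a type and less RNA per cell cannot be told apart. The 10 markers of other cell types summed to 1001 and 1045 in the CD133+ fraction of KATO-III and to 2010.1 and 2092 in its CD133- fraction, with 3 of the 10 above the floor on any of these arrays, and their part in the KATO-III counts was not tested.

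The plot of changes by line shows genes that moved the same way and genes that moved in opposite ways. Among the 47 genes, 34 were called in at least 1 line (72.3%, against 56.2% of all tested genes), 13 had the same sign in all 3 lines (27.7%, against 22.5%), and 6 were called in opposite directions in 2 lines or more (12.8%, against 10.9%). The 6 are PSMB2, PSMB4, PSMB9, PSMC3, PSMD1 and PSMG2. For these patterns the share among genes above the floor on all arrays, as all 47 were, was not computed. By the test of the interaction of line and fraction, the effect of the fraction differed between the lines for 27 of the 47, 57.4%, where 44.4% of all tested genes and 58.5% of those above the floor on all arrays were called. The shares of opposite directions and of the interaction thus lay near those of other genes. With each array centred on its median, the split was 17 higher and 5 lower in KATO-III, and 4 higher and 2 lower in SNU-601.

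**Figure D2:**
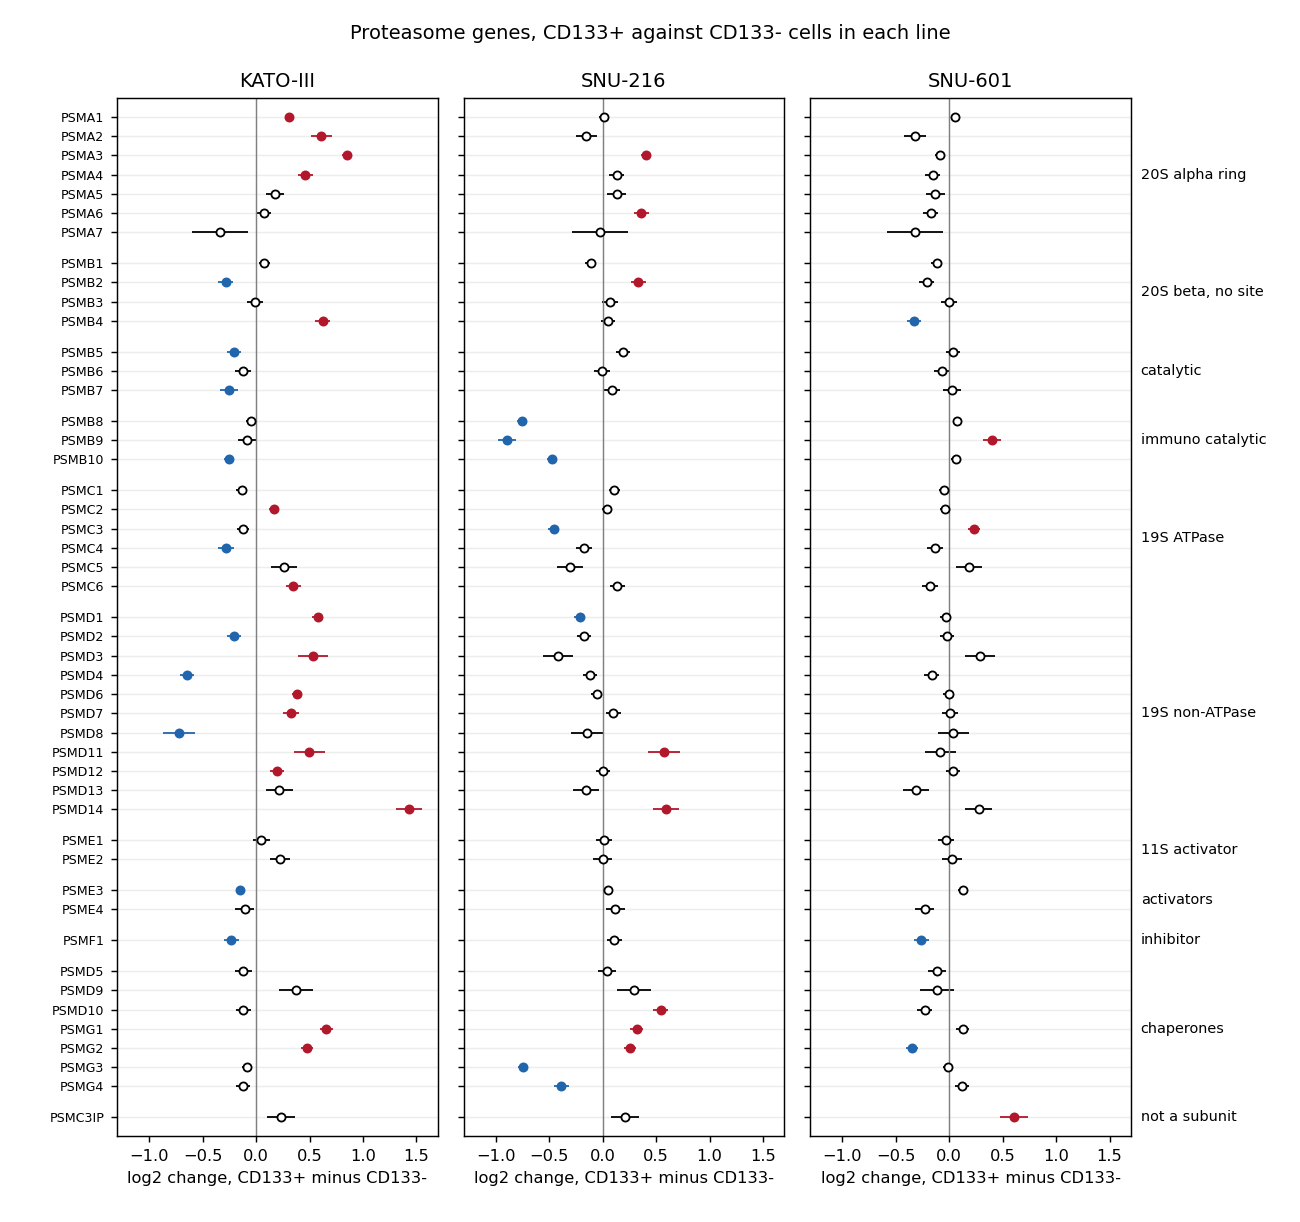
Log2 change of each tested gene, CD133+ minus CD133- cells, in each line, with bars of 1 SE from limma; filled points are called (red higher, blue lower in CD133+ cells) and open points are not. PSMD14 has the largest change, 1.43 in KATO-III, and PSMB8, PSMB9 and PSMB10 lie to the left of 0 in SNU-216.

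The catalytic subunits of the immunoproteasome differed between the lines, as most tested genes did, and were lower in CD133+ cells of SNU-216. PSMB9, which takes the place of PSMB6, measured 1919.8 and 1896 in the CD133+ fraction of KATO-III against 1985 and 2068 in its CD133- fraction. It measured 391 and 385 in SNU-216 CD133+ cells and 685 and 758 in CD133- cells, and 197 and 225 in SNU-601 CD133+ cells and 168 and 151 in CD133- cells. All KATO-III arrays lay above all SNU-216 arrays, and these above all SNU-601 arrays, and the fractions overlapped in no line. How many of all tested genes part in these ways was not counted. PSMB9 was lower in CD133+ cells of SNU-216 by a log2 change of -0.89 ± 0.08 (SE; n = 2 arrays a population; limma adjusted p = 0.000108), and higher in those of SNU-601 by 0.40 ± 0.08 (limma adjusted p = 0.0137). Without replicate 2 of either SNU-601 fraction, the latter change was 0.30 or 0.32 and was not called, with limma adjusted p of 0.0759 and 0.079. In KATO-III the change was -0.09 ± 0.08 and was not called. The change in SNU-601 minus that in SNU-216 was 1.29 ± 0.12 (limma adjusted p = 0.000128).

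PSMB8, the alternative to PSMB5, measured 3075 and 2918 in KATO-III CD133+ cells and 3109 and 3093 in CD133- cells. In SNU-216 it was 1135 and 1107 in CD133+ cells against 1856 and 1924 in CD133- cells, and in SNU-601 it was 1076 and 1061 against 1022 and 1004. The gap within SNU-216 was far wider than the spread between arrays, a log2 change of -0.75 ± 0.04 (limma adjusted p = 8.27e-06), and the changes of -0.05 ± 0.04 in KATO-III and 0.08 ± 0.04 in SNU-601 were not called. The change in SNU-216 minus that in KATO-III was -0.70 ± 0.06 (limma adjusted p = 5.57e-05). The change in SNU-601 minus that in SNU-216 was 0.83 ± 0.06 (limma adjusted p = 4.35e-05).

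PSMB10, the alternative to PSMB7, measured 11045 and 11982 in KATO-III CD133+ cells and 13776 and 13657 in CD133- cells, and 8310.3 and 8330.4 against 11697 and 11433 in SNU-216. In SNU-601 it measured 5590.2 and 5852 in CD133+ cells and 5429 and 5503 in CD133- cells. CD133+ cells were lower in KATO-III and SNU-216, by -0.25 ± 0.05 and -0.47 ± 0.05 (limma adjusted p = 0.00231 and 0.000126). The change of 0.07 ± 0.05 in SNU-601 was not called.

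The 11S activator genes were called in no line. PSME1 stayed between 6936 and 8127 on all 12 arrays, with changes of 0.05 ± 0.08 in KATO-III, 0.01 ± 0.08 in SNU-216 and -0.03 ± 0.08 in SNU-601, none of them called. PSME2 measured 13210.5 and 15736 in KATO-III CD133+ cells and 12012 and 12670.2 in CD133- cells, and 10070.5 to 11758 on the other 8 arrays. Its changes were 0.22 ± 0.09, 0.00 ± 0.09 and 0.03 ± 0.09, and none was called, although the KATO-III change was called without CD133+ replicate 1 (0.35, limma adjusted p = 0.0207) and under 3 other settings. The promoters of both genes hold the GAAAGCGAAA letters, as do those of PSMB8, PSMB10 and the assembly chaperone PSMG4.

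Of the constitutive counterparts, PSMB5 and PSMB7 were called in KATO-III and PSMB6 in no line. PSMB5 measured 7808 and 7659.8 in KATO-III CD133+ cells and 8580.0 and 9282 in CD133- cells, 9658 and 10875 against 8739 and 9192 in SNU-216, and 9595 and 10088 against 9734 and 9467 in SNU-601. PSMB5 was called lower in KATO-III CD133+ cells (-0.21 ± 0.06, limma adjusted p = 0.032), and the changes of 0.19 ± 0.06 in SNU-216 and 0.04 ± 0.06 in SNU-601 were not called, although that in SNU-216 was called without CD133+ replicate 1 (0.28, limma adjusted p = 0.0196). PSMB7 measured 12234 and 13330.1 in KATO-III CD133+ cells and 14063 and 16429 in CD133- cells, a change of -0.25 ± 0.08 (limma adjusted p = 0.0385). It lay between 12905 and 15594 on the other 8 arrays, with changes of 0.08 ± 0.08 in SNU-216 and 0.03 ± 0.08 in SNU-601 that were not called. PSMB6 had changes of -0.12 ± 0.07, -0.01 ± 0.07 and -0.07 ± 0.07, none called, and its fractions overlapped in every line. The KATO-III call of PSMB5 was lost without either CD133+ array or without CD133- replicate 2 (-0.22, -0.19 and -0.15), and that of PSMB7 without CD133+ replicate 1 (-0.19), CD133- replicate 2 (-0.14) or either SNU-216 CD133- array (-0.25).

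**Figure D3:**
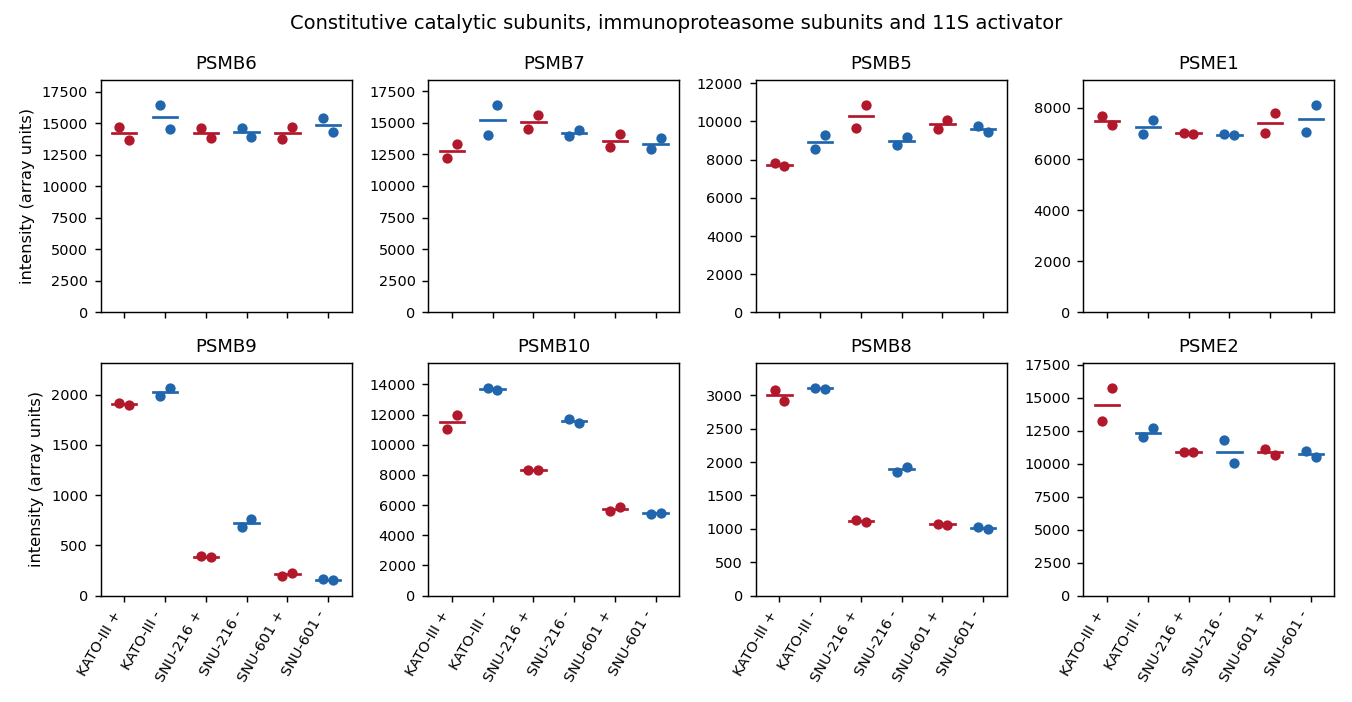
Intensity (linear array units, from 0) of the 3 constitutive catalytic, 3 immunoproteasome catalytic and 2 11S activator genes on each array (points; red CD133+, blue CD133-), with bars at the mean of the 2 arrays of a population. PSMB8 and PSMB9 are higher in KATO-III than in the other lines and lower in CD133+ than in CD133- cells of SNU-216, and PSMB6 and PSME1 stay level.

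Between the lines, the 3 immunoproteasome catalytic genes were on average lowest in SNU-601 and highest in KATO-III. SNU-601 minus KATO-III was -3.42 ± 0.06 for PSMB9, -1.55 ± 0.03 for PSMB8 and -1.17 ± 0.03 for PSMB10, over the mean of both fractions (limma adjusted p = 1.43e-10, 2.97e-10 and 3.15e-09). SNU-216 minus KATO-III was -1.07 ± 0.03 for PSMB8 and -0.36 ± 0.03 for PSMB10, and SNU-601 minus SNU-216 was -1.53 ± 0.06 for PSMB9, -0.48 ± 0.03 for PSMB8 and -0.81 ± 0.03 for PSMB10, each of them called. In SNU-216 minus KATO-III, 62.0% of all tested genes were called in either direction, and 72.7% of those above the floor on all arrays. The shares were 58.6% and 71.3% in SNU-601 minus KATO-III, and 56.5% and 70.7% in SNU-601 minus SNU-216. PSME1 was called in no pair of lines, and PSME2 was lower in SNU-216 and in SNU-601 than in KATO-III, by -0.29 ± 0.06 and -0.30 ± 0.06. The 10 markers of other cell types summed to between 1001 and 2092 on the KATO-III arrays, 65.7 and 129 on the SNU-216 arrays and 193 and 303 on the SNU-601 arrays. In KATO-III this sum was mostly CD14, at 835 to 1242 on its 4 arrays, and LUM, at 743 and 783 on the CD133- arrays, with PTPRC under the floor; the part of this in the difference was not tested.

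Genes of antigen presentation and the interferon response, a list of 16 beside the proteasome, were counted too. In SNU-216, 10 of the 16 were lower and 3 higher in CD133+ cells, with a median log2 change of -0.41, against 4 lower and 4 higher in KATO-III (median 0.00) and 1 lower and 4 higher in SNU-601 (median 0.09). The share lower in SNU-216 was 62.5%, where 14% of all tested genes and 20% of those above the floor on all arrays were lower, and the share higher was 18.8%, against 14.6% and 20.1%. In KATO-III 25% were lower and 25% higher, against 20.6% and 18.7% of all tested genes, and in SNU-601 6.25% and 25%, against 7.78% and 8.59%. Of genes above the floor on all arrays, 27.4% were lower and 24.0% higher in KATO-III, and 10.4% and 12.0% in SNU-601. The genes named here were chosen after their values were seen. TAP1, a subunit of the peptide transporter whose gene lies between PSMB8 and PSMB9, measured 7219 and 7413 in SNU-216 CD133+ cells against 9068 and 9250.4 in CD133- cells, and 5092 and 4741 against 4245 and 4345 in SNU-601. Its changes were -0.32 ± 0.05 in SNU-216, 0.19 ± 0.05 in SNU-601 and -0.04 ± 0.05 in KATO-III, the first 2 of them called. IRF1, a transcription factor of the interferon response, measured 1046 and 1085 against 2340.2 and 2434 in SNU-216, a change of -1.16 ± 0.07, and 1791 and 1645 against 1157 and 1096 in SNU-601, a change of 0.61 ± 0.07. In KATO-III it was 3393 and 3468 against 4215 and 4829, a change of -0.40 ± 0.07, and limma called the gene in each line (adjusted p = 1.08e-05, 0.000929 and 0.00199).

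Of the 7 tested alpha ring genes, 4 were higher in the CD133+ fraction of KATO-III (57.1%). Of all tested genes 18.7% were, and of those above the floor on all arrays 24.0%. In SNU-216 2 of the 7 were higher (28.6%, against 14.6% and 20.1%). None of the 7 was called lower in any line, and none was called in SNU-601, where 2 had an unadjusted limma p under 0.05. PSMA3, an alpha subunit, measured 6263 and 6001 in KATO-III CD133+ cells against 3377 and 3415 in CD133- cells, and 5630.3 and 5581 against 4143 and 4336 in SNU-216. In SNU-601 it was 3419.8 and 3719 against 3831 and 3740.1, so the fractions parted in the first 2 lines and lay close in the last. The changes were 0.85 ± 0.05 and 0.40 ± 0.05 (limma adjusted p = 3.65e-06 and 0.000403), and -0.09 ± 0.05 in SNU-601, and each pair of lines differed in this change (interaction, limma adjusted p = 4.7e-05). The other called genes of the ring were PSMA1 (0.31), PSMA2 (0.61) and PSMA4 (0.46) in KATO-III and PSMA6 (0.36) in SNU-216.

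The beta subunits without a catalytic site went in different directions. PSMB4 measured 10614 and 9440.0 in KATO-III CD133+ cells against 6470.3 and 6537 in CD133- cells, a change of 0.62 ± 0.07, and 6713 and 7052 against 8244 and 9047 in SNU-601, a change of -0.33 ± 0.07 (limma adjusted p = 0.00013 and 0.0131). In SNU-216 its fractions overlapped (0.05 ± 0.07), and the SNU-601 call was lost without CD133+ replicate 1 (-0.29) or CD133- replicate 2 (-0.26). PSMB2 was lower in CD133+ cells of KATO-III (-0.28 ± 0.07) and higher in those of SNU-216 (0.34 ± 0.07). PSMB1 and PSMB3, between 11158 and 17469.6 on all arrays, were called in no line.

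Of the 11 non-ATPase subunits of the 19S particle, 7 were higher and 3 lower in KATO-III CD133+ cells (63.6% and 27.3%, against 18.7% and 20.6% of all tested genes, and 24.0% and 27.4% of those above the floor on all arrays), with a median change of 0.33, against 2 higher and 1 lower in SNU-216 (median -0.12) and none in SNU-601 (median -0.01; 2 with an unadjusted limma p under 0.05). PSMD14, the deubiquitinase that removes ubiquitin chains from substrates at the pore, measured 5878 and 5979 in KATO-III CD133+ cells against 1950.3 and 2484 in CD133- cells. It was 2817 and 2854 against 2094 and 1686 in SNU-216, and 2615 and 2839 against 2178 and 2329 in SNU-601. All 6 CD133+ arrays of PSMD14 lay above all 6 CD133- arrays, a separation that was not counted over all tested genes. Its changes were 1.43 ± 0.12 in KATO-III and 0.59 ± 0.12 in SNU-216 (limma adjusted p = 3.17e-05 and 0.00636), and 0.27 ± 0.12 in SNU-601, which was not called. The change in KATO-III exceeded that in SNU-216 by 0.84 ± 0.17 and that in SNU-601 by 1.16 ± 0.17 (limma adjusted p = 0.00593 and 0.0012), and the difference between the latter 2 was not called (-0.32 ± 0.17, limma adjusted p = 0.223).

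PSMD1, a large scaffold of the base, measured 5727 and 6149 against 3962 and 3995 in KATO-III, and 4529 and 4156 against 4915 and 5158 in SNU-216. It was thus higher in CD133+ cells of the former (0.58 ± 0.05, limma adjusted p = 4.8e-05) and lower in those of the latter (-0.21 ± 0.05, limma adjusted p = 0.0154), a call that was lost without replicate 2 of either SNU-216 fraction (-0.15 and -0.18). In SNU-601 it lay between 3580.3 and 3712. PSMD8, a lid subunit, measured 2896 and 2756 against 4391 and 4921 in KATO-III and fell by 0.72 ± 0.15 on the log2 scale, and PSMD4, a ubiquitin receptor, measured 2807 and 2682 against 4076 and 4510.0 and fell by 0.64 ± 0.07 (limma adjusted p = 0.00428 and 9.36e-05). PSMD11, a lid subunit, was higher in CD133+ cells of KATO-III (0.50 ± 0.15) and of SNU-216 (0.57 ± 0.15), where it measured 668 and 581 against 456 and 385; the SNU-216 call was lost without CD133+ replicate 1 (0.47) or CD133- replicate 2 (0.45).

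Of the 6 ATPases, which unfold the substrate, 2 were higher and 1 lower in CD133+ cells of KATO-III. In SNU-216 1 was lower, and in SNU-601 1 was higher. The KATO-III shares were 33.3% and 16.7%, against 24.0% and 27.4% of genes above the floor on all arrays. Each of the other shares was 16.7%, against 20% of those genes lower in SNU-216 and 12.0% higher in SNU-601. PSMC3 measured 7069 and 7307 against 9506 and 10249 in SNU-216, and 6105 and 6227 against 5408 and 5105 in SNU-601. It was lower in CD133+ cells of the first (-0.46 ± 0.05) and higher in those of the second (0.23 ± 0.05; limma adjusted p = 0.000371 and 0.0214), and the second call was lost without either SNU-601 CD133+ array (0.25 and 0.22) or CD133- replicate 2 (0.19). PSMC4 measured 1999 and 2175 against 2466 and 2613 in KATO-III, a change of -0.28 ± 0.08 (limma adjusted p = 0.0156) that was not called without CD133+ replicate 1 (-0.22) or CD133- replicate 2 (-0.24). PSMC2 (0.17) and PSMC6 (0.35) were the ATPases called higher in KATO-III.

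**Figure D4:**
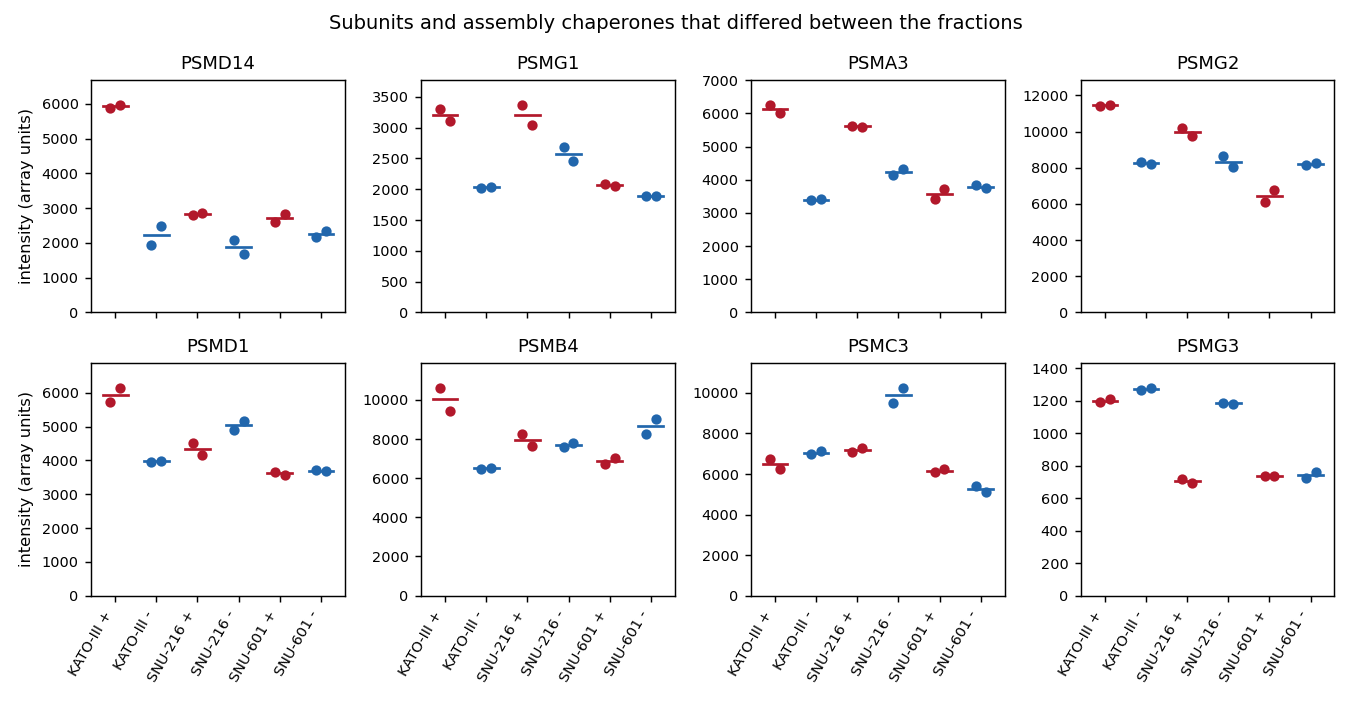
Intensity (linear array units, from 0) of 8 genes called between the fractions, on each array (points; red CD133+, blue CD133-), with bars at the mean of the 2 arrays of a population. PSMD14 is highest in KATO-III CD133+ cells, PSMG2 is higher in CD133+ cells of KATO-III and SNU-216 and lower in those of SNU-601, and PSMG3 is low in SNU-216 CD133+ cells and in both SNU-601 fractions.

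The assembly chaperones help the rings and the base to form. PSMG1 and PSMG2, which pair to guide the alpha ring, were higher in CD133+ cells of KATO-III and SNU-216. PSMG1 measured 3305 and 3114 against 2023 and 2044 in KATO-III, 3374 and 3043 against 2694 and 2452 in SNU-216, and 2086 and 2053 against 1898 and 1894 in SNU-601. The fractions of each line did not overlap, a separation that was not counted over all tested genes. The changes of PSMG1 were 0.66 ± 0.06, 0.32 ± 0.06 (limma adjusted p = 5.53e-05 and 0.00488) and 0.13 ± 0.06, the last not called. PSMG2 measured 11441 and 11489 against 8310.3 and 8211 in KATO-III, 10186 and 9734 against 8654 and 8035 in SNU-216, and 6132 and 6798 against 8126 and 8267 in SNU-601. It was the only 1 of the 47 genes called in all 3 lines (2.13%, against 4.97% of all tested genes), with changes of 0.47 ± 0.06 and 0.26 ± 0.06 upward and of -0.34 ± 0.06 in SNU-601 (limma adjusted p = 0.000209, 0.00915 and 0.00442). Its SNU-216 call was lost without CD133+ replicate 1 (0.22) or CD133- replicate 2 (0.20).

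PSMG3, which pairs with PSMG4, measured 720.1 and 691 against 1187 and 1178 in SNU-216, and fell there by 0.75 ± 0.05 (limma adjusted p = 1.19e-05), as did PSMG4 by 0.38 ± 0.07. PSMG3 lay between 1191 and 1279 on the KATO-III arrays and between 726 and 761 on the SNU-601 arrays, with no call in these lines. PSMD10, or gankyrin, a chaperone of the base, measured 1935 and 2008 against 1281 and 1429 in SNU-216, a change of 0.54 ± 0.07 (limma adjusted p = 0.000555). Its changes of -0.12 ± 0.07 in KATO-III and -0.23 ± 0.07 in SNU-601 were not called. The base chaperones PSMD5 and PSMD9 were called in no line.

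The inhibitor PSMF1 measured 2921 and 3188 against 3665 and 3499.8 in KATO-III and 1613 and 1619 against 2002 and 1869 in SNU-601, lower in CD133+ cells of each (-0.23 ± 0.07 and -0.26 ± 0.07, limma adjusted p = 0.0318 and 0.0406). The SNU-601 call held when 1 of 4 arrays was left out (those of KATO-III CD133+ and SNU-216 CD133+) and was lost for the other 8, where the change ran from -0.31 to -0.21. Of the other activators, PSME3 was lower in KATO-III CD133+ cells (-0.15 ± 0.04) and PSME4 was called in no line. PSMC3IP, no proteasome gene, measured 166 and 178 against 98.0 and 129.6 in SNU-601, a change of 0.61 ± 0.13 (limma adjusted p = 0.0138) that was not called without CD133+ replicate 2 (0.56).

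Over the 3 lines together, with line as a block, PSMD14 (0.77 ± 0.16) and PSMG1 (0.37 ± 0.08) were higher in CD133+ cells (limma adjusted p = 0.029 and 0.0334), 2 of 47 where 2.62% of all tested genes and 3.97% of those above the floor on all arrays were called higher. None was called lower by limma, where 2.11% and 2.82% were, and 5 had an unadjusted p under 0.05 in that direction, with PSMB10 among the genes under it (-0.22 ± 0.08, adjusted p = 0.11). The changes of PSMB8 (-0.24 ± 0.12) and PSMB9 (-0.19 ± 0.17) were not called. Neither PSMD14 nor PSMG1 was called when any 1 KATO-III array or SNU-216 CD133- replicate 2 was left out, with changes between 0.64 and 0.75 for PSMD14 and between 0.32 and 0.36 for PSMG1, nor was PSMG1 without SNU-216 CD133+ replicate 1 (0.36). They were also not called once the 2 arrays of a population were averaged first (limma adjusted p = 0.796 for each).

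Between the lines, the tested genes were mostly lower in SNU-601. SNU-601 minus KATO-III had 27 of 47 lower (57.4%) and 5 higher (10.6%), where 28.7% and 29.9% of all tested genes and 34.6% and 36.7% of those above the floor on all arrays were. SNU-601 minus SNU-216 had 25 lower (53.2%) and 6 higher (12.8%), where 29.4% and 27.1% of all and 37.4% and 33.4% of those above the floor on all arrays were. SNU-216 minus KATO-III had 20 lower (42.6%) and 14 higher (29.8%), where 30.3% and 31.7% of all and 34.5% and 38.2% of those above the floor on all arrays were. Each line stands in 2 of these comparisons, so they are not independent. The median difference of the 47 genes was -0.27, -0.14 and -0.06 in this order, against 0.02, -0.01 and 0.03 over all tested genes. Against KATO-III, SNU-601 was lower for 10 of the 17 genes of the 19S particle, 6 of the 7 chaperones and 4 of the 7 alpha ring genes, and for none of the 4 beta subunits without a catalytic site or the 3 constitutive catalytic subunits.

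**Figure D5:**
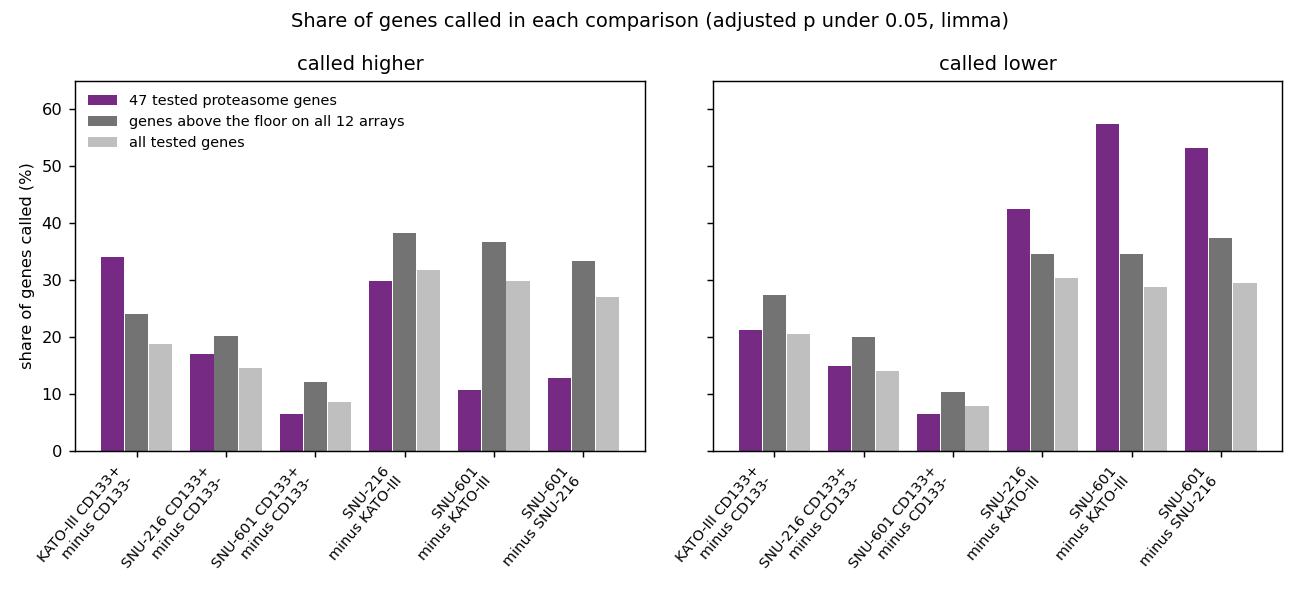
Share (%) of genes called higher (left) and lower (right) by limma in each comparison, for the 47 tested proteasome genes, the genes above the floor on all 12 arrays and all tested genes. The proteasome genes called lower are 57.4% in SNU-601 minus KATO-III and 53.2% in SNU-601 minus SNU-216, against 28.7% and 29.4% of all tested genes.

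Some single genes went the other way or stood apart. PSMD9 measured 669.5 to 743 on the SNU-601 arrays, 133 to 200.0 on those of KATO-III and 84.7 to 124 on those of SNU-216, with SNU-601 higher by 2.12 ± 0.11 than KATO-III and by 2.67 ± 0.11 than SNU-216 (limma adjusted p = 2.21e-07 and 2.87e-08). PSMA7, an alpha subunit, measured 45.2 to 88.9 in SNU-601 and 184 to 264 in the other lines, so that it lay near the floor in SNU-601, with SNU-601 minus KATO-III at -1.61 ± 0.18 and SNU-601 minus SNU-216 at -1.80 ± 0.18 (limma adjusted p = 4.86e-05 and 1.91e-05). The ends of its SNU-601 range are the 2 CD133+ arrays. Its row was dim in every line, with a mean intensity of 179, where the other tested alpha ring genes had 1033 (PSMA2) to 12070 (PSMA5). How well this row measures the gene was not tested. PSMF1 measured 5047 to 5899 in SNU-216, 2921 to 3665 in KATO-III and 1613 to 2002 in SNU-601. For this gene SNU-601 minus SNU-216 was -1.58 ± 0.05 (limma adjusted p = 4.42e-09). PSMD14 was lower in SNU-216 (-0.65 ± 0.09) and SNU-601 (-0.54 ± 0.09) than in KATO-III, where its CD133+ arrays were the high ones. PSMC4 was higher in SNU-601 than in KATO-III (0.75 ± 0.05) and SNU-216 (0.95 ± 0.05).

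Members of high intensity had smaller changes, in a division made after the values were seen. The 8 genes with a mean intensity above 10000 (PSMA5, PSMB1, PSMB3, PSMB6, PSMB7, PSMC1, PSMC2 and PSME2) had a median largest change within a line of 0.15 on the log2 scale, and 2 of them were called in a line. The other 39 had a median of 0.38, and 32 were called. The shares called are 25.0% and 82.1%, where 56.2% of all tested genes were called in at least 1 line. Shares for other genes at these intensities were not computed. The part of the intensity scale in the smaller changes was not tested.

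A list of 28 tested genes that bind the proteasome, deliver ubiquitinated substrates or control its genes gave 10 higher and 5 lower in KATO-III CD133+ cells, 5 and 4 in SNU-216, and 2 and 6 in SNU-601. These are 35.7% and 17.9% in KATO-III, where 18.7% and 20.6% of all tested genes were called, 17.9% and 14.3% in SNU-216, against 14.6% and 14%, and 7.14% and 21.4% in SNU-601, against 8.59% and 7.78%. Among genes above the floor on all arrays, the shares higher and lower were 24.0% and 27.4%, 20.1% and 20%, and 12.0% and 10.4% in this order. The genes named here were chosen after their values were seen. UCHL5, a deubiquitinase of the 19S particle, was higher in CD133+ cells of every line (0.80 ± 0.06, 0.26 ± 0.06 and 0.27 ± 0.06) and was the only 1 of the list called over the 3 lines (0.45 ± 0.09, limma adjusted p = 0.0239). NFE2L1, the transcription factor that restores proteasome genes when degradation is blocked, measured 2532 and 2459.6 against 3653 and 3594 in KATO-III, 1181 and 1263 against 1019 and 971 in SNU-216, and 1746 and 1728 against 2274 and 2252 in SNU-601. It was lower in CD133+ cells of KATO-III (-0.54 ± 0.05) and SNU-601 (-0.38 ± 0.05) and higher in those of SNU-216 (0.30 ± 0.05; limma adjusted p = 3.2e-05, 0.00114 and 0.00148). NFE2L2, which acts through antioxidant response elements, was higher in CD133+ cells of KATO-III (1.04 ± 0.07) and SNU-216 (0.47 ± 0.07), with 0.03 ± 0.07 in SNU-601.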

How the data were processed

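The authors hybridized RNA of 12 sorted samples to Illumina HT-12 v3 BeadChips. BeadStudio is named in the submitters' processing notes, and the methods state quantile normalization. The deposited values are linear intensity values with a background subtracted (32.1% at or below 0) and a row for each gene symbol. How probes that share a symbol were merged is not given in the sources used here, and the number of unused columns is 0. Of 34688 rows, 93 are empty.

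Intensities under 32.7, the absolute 1st percentile, were set to that floor and log2 was taken. Genes above it on at least 2 arrays were tested in R 4.3.3 with limma 3.58.1 (lmFit, eBayes with trend, Benjamini-Hochberg over all tested genes, threshold 0.05). A fit of 6 population means gave the differences within lines, between lines and the interaction, and a model with line as a block gave the difference over the 3 lines. With 2 arrays a population, the number of arrays limits precision, and p-values measure the spread between arrays, which may be technical. The scripts were tested on simulated data. Tables and figures were made in Python 3.11.15 (numpy 2.4.6, pandas 2.3.3, matplotlib 3.10.9).

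The genes given in full are the 5 immunoproteasome and 3 constitutive catalytic genes, the 3 called members with the largest change in each direction in each line, those called in all lines or over the lines, the 5 with the widest range, and the 3 with the smallest interaction p among those of opposite sign. The members and the gene lists were chosen with earlier results of these data known. Promoter windows and neighbouring genes are from RefSeq (GRCh38.p14), with a window for 43 of the 49 symbols. Alternatives covered the floor, an added offset, the normalization, the filter, the trend, the replicate numbers, the samples in the fit and leaving out each array.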

Additional observations from a re-analysis of the deposited data

Results flagged for a closer look

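The change between the fractions differed between the lines, by the interaction test in limma, for 27 of the 47 tested genes, among them 16 of the genes chosen by the rule for genes given in full, whose adjusted p follows. That rule used the size of changes within a line and, for some genes, the interaction p itself, so these p-values give no separate support. Of these 16, the catalytic subunits were PSMB8 (3.09e-05), PSMB9 (0.000142), PSMB10 (0.000617) and PSMB5 (0.0174). Those in the rest of the 20S core were PSMA3 (4.7e-05) and PSMB4 (0.000249), whose changes were highest in KATO-III and lowest in SNU-601. Those in the 19S particle were PSMD1 (0.000137), PSMC3 (0.000416), PSMD14 (0.00168), PSMD4 (0.00319) and PSMD8 (0.0344). The chaperones and the inhibitor were PSMG3 (7.37e-05), PSMG2 (0.000173), PSMD10 (0.000578), PSMG1 (0.0032) and PSMF1 (0.0265). Such a difference was called for 44.4% of all tested genes and 58.5% of those above the floor on all arrays.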

How the results depend on the processing

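Counts of called members held within 1.5 times in 72 of 80 recomputations under other settings, and named members kept direction and call in 782 of 835. Fitted on the arrays of 1 line alone, limma called 16 members in KATO-III, 7 in SNU-216 and 0 in SNU-601 (13 with an unadjusted p under 0.05); this fit has fewer arrays. Over the 3 lines it called 1 without the trend, and 0 with no filter, with the 2 arrays averaged first, or with population as a random block (12, 1 and 6 with an unadjusted p under 0.05). The numbers of the arrays do not pair them (correlation of same-numbered deviations 0.0261 in KATO-III, 0.0129 in SNU-216 and -0.00648 in SNU-601); with replicate number as a block, 24, 16 and 4 members were called within the lines and 0 over the lines (8 with an unadjusted p under 0.05). Leaving out each array gave 16 to 26 calls in KATO-III (16 without CD133- replicate 2), 14 to 17 in SNU-216, 3 to 7 in SNU-601 (3 without replicate 2 of either fraction), 0 to 2 over the lines (0 without any KATO-III array or SNU-216 CD133- replicate 2, 1 without SNU-216 CD133+ replicate 1), 24 to 28 for the interaction, 27 to 34 for SNU-216 minus KATO-III, 31 to 33 for SNU-601 minus KATO-III and 30 to 33 for SNU-601 minus SNU-216. Signs turned only for changes that were not called. With arrays centred on their medians, PSME1 (0.001486) and PSMD1 (0.001436) turned in SNU-601. With an array left out, the ranges that crossed 0 were PSME1 in KATO-III (-0.002066 to 0.103), PSME2 (-0.111 to 0.1126) and PSMB6 (-0.0474 to 0.0311) in SNU-216, PSME1 (-0.135 to 0.0718), PSME2 (-0.004574 to 0.0587), PSMB5 (-0.0007656 to 0.0715) and PSMB7 (-0.0274 to 0.0812) in SNU-601, and PSME1 (-0.0105 to 0.0413), PSMB5 (-0.0373 to 0.0483) and PSMB7 (-0.0764 to 0.006818) over the lines. The causes were not tested.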
